A study of Mus musculus with 22 samples.

Results

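Donor CD4 T cells recovered from the gut were compared with donor CD4 T cells recovered from the spleen of mouse recipients of a hematopoietic cell transplant (HCT). The comparison used 10 of the 22 RNA-seq libraries of the study, in 5 pairs: a gut and a spleen library entered together when both were CD4 libraries with the same batch and the same treatment label. The graft held spleen cells and bone marrow cells, the donors were wild-type C57BL/6 mice, and the recipients were lethally irradiated wild-type BALB/C mice. Control IgG or an antibody against IL-2 was given on alternate days between day 0 and day 6. Spleen and colon (the tissue labels Spleen and Gut) were taken on day 7 for sorting of the donor-type T cells. Anti-IL-2 pairs came from batches 181201, 181212 and 190306, and IgG pairs from batches 181212 and 190306. The spleen IgG library of batch 181201 had no gut partner and was left out. All 10 libraries shared the donor strain, the irradiated recipient, the antibody schedule and the day of harvest, so no naive or untransplanted cells served as a reference, and recipients that lack PD-L1, which the title of the study names, were not analysed here. The labels do not say whether a pair came from the same animals or from pools. A p-value here rests on how far 5 pairs vary, which may in part be technical.

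After a transplant of this kind, donor T cells that recognise the recipient expand in lymphoid organs and enter target organs such as the colon, where they drive graft-versus-host disease. A T cell leaves the spleen by following sphingosine-1-phosphate through the receptor S1PR1, under the transcription factor KLF2, and CCR7 brings it into lymph nodes. Cells that settle in the gut wall downregulate this exit machinery. They take up CD69, the integrins CD103 (Itgae with Itgb7) and CD49a (Itga1), and the small-intestinal chemokine receptor CCR9, and they read local cues such as TGF-beta, aryl hydrocarbon receptor (AhR) ligands, cytokines and antigen.

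Total counts ran from 14628806 to 23978193 per library, with 14042 to 14965 genes detected. Levels are given as CPM (counts scaled to a common library size) on effective library sizes, and a list of 5 values is always in the order anti-IL-2 of batches 181201, 181212 and 190306, then IgG of batches 181212 and 190306. The CD4 identity of both tissues held: Cd4 measured 2364, 2395, 2545, 2424 and 2476 CPM in gut and 1959, 2049, 1779, 1952 and 1922 CPM in spleen, against at most 3.65 CPM of Cd8a in any library. The T cell receptor and signalling genes of the T cell marker list summed to 10346 to 11330 CPM in gut and 8626 to 9022 CPM in spleen. Other cells' RNA was uneven. Macrophage and monocyte markers summed to 402, 81.0, 113, 110.2 and 291 CPM in spleen, and to 116, 90.5, 65.5, 86.3 and 67.6 CPM in gut, so that they stood out in the spleen libraries of anti-IL-2 batch 181201 and IgG batch 190306. Fat cell markers summed to 5.64, 22.4, 0.0438, 0.111 and 0.113 CPM in gut and at most 0.312 CPM in spleen, and pancreas acinar markers to 34.6, 60.1, 10.5, 9.26 and 8.86 CPM in gut. Both were high in the anti-IL-2 gut libraries of batches 181201 and 181212. Gut epithelial markers summed to 107, 65.6, 127, 64.1 and 39.5 CPM in gut and 20.5, 20.6, 22.5, 25.5 and 18.7 CPM in spleen. In this list Cdh1 (E-cadherin) rose from 0.5 to 3.16 CPM in spleen to 14.6 to 86.8 CPM in gut, while Epcam stayed between 1.98 and 8.47 CPM in all 10 libraries. Whether these amounts contribute to a difference was not tested unless a value without the pairs concerned is given.

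**Figure D1:**
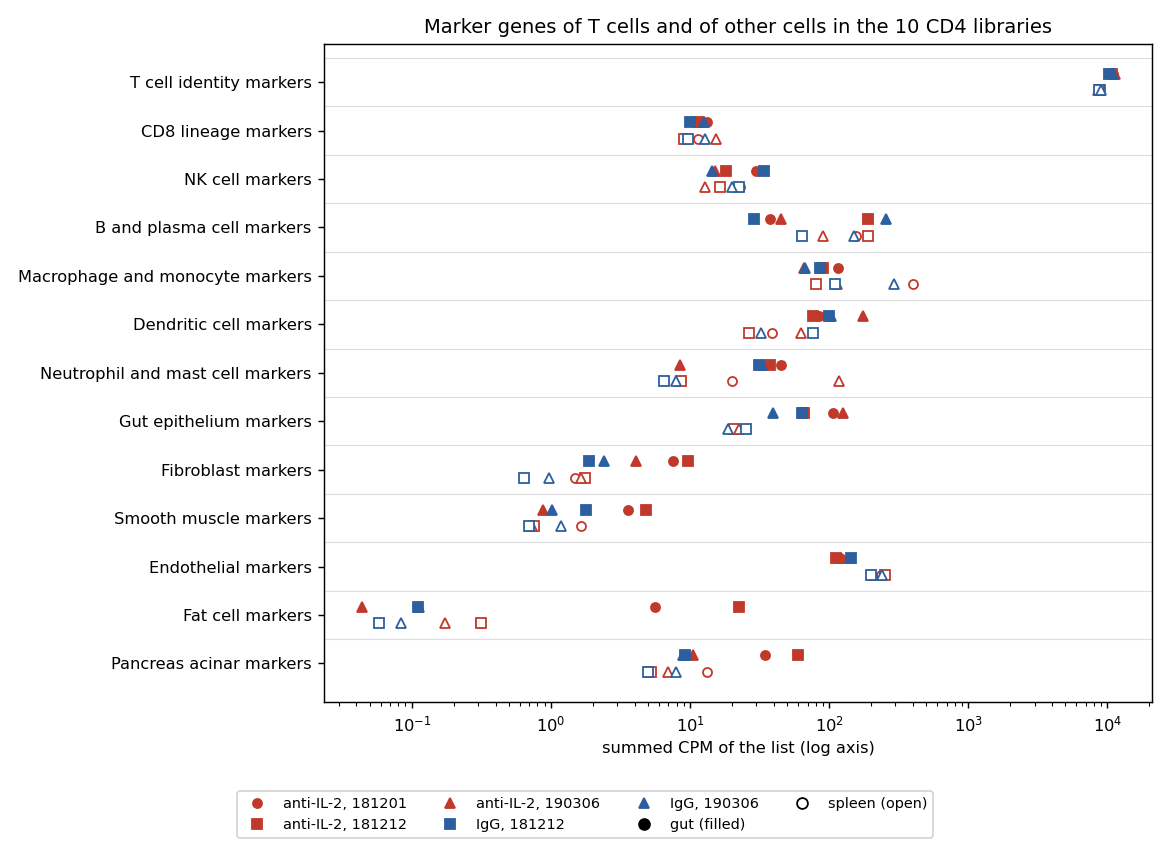
Summed CPM of 13 cell type marker lists in each of the 10 CD4 libraries, on a log axis, with filled symbols for gut and open symbols for spleen. The T cell list lies at 8626 CPM or more throughout, the macrophage list reaches 402 CPM in spleen, and fat and pancreas markers stand out in 2 gut libraries.

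Of 11588 genes tested, 2414 (20.8%) were higher in gut and 2288 (19.7%) were lower, at an adjusted p under 0.05 in edgeR's quasi-likelihood test with the pair as a block and Benjamini-Hochberg adjustment. All adjusted p-values below come from that test over all genes unless the comparison with CD8 cells is named. The shares of 20.8% and 19.7% are the background for the list counts below, and no list was tested against them. Most of these differences were small: the median log2 fold change (gut minus spleen) was 0.37 among the genes that rose and -0.43 among those that fell, and 406 and 354 genes passed 2-fold. Over all genes tested the median was -0.0037. The first principal component held 47.5% of the variance and shifted by 51.6 to 63.7 units in the same direction within each of the 5 pairs. Libraries of the same tissue also spread along it, from -46.4 to -5.70 in spleen and from 11.3 to 51.0 in gut. With upper quartile scaling the split became 1850 higher and 2965 lower, 38.4% of the calls higher against 51.3%, and the median of all genes moved to -0.06. A difference of RNA level in sorted bulk cells cannot tell fewer cells of a type from less RNA per cell.

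Genes of tissue residence rose almost without exception. Of the 17 measured members of this list, 16 were higher in gut, with a median log2 fold change of 1.84, and in 12 of them all 5 gut libraries lay above all 5 spleen libraries, as they did in 7.54% of all genes tested. The list holds adhesion molecules, transcription factors and signalling regulators that mark T cells lodged in tissue. Itgae, the alpha chain of CD103, which binds E-cadherin on epithelium (chr11:73090583-73147446, mm10), measured 239, 175, 53.0, 138 and 36.5 CPM in gut and 6.68, 6.00, 10.3, 9.79 and 12.4 CPM in spleen. Every gut library exceeded every spleen library, but the gut of both pairs of batch 190306 was well below the other gut libraries. The log2 fold change was 3.50 ± 0.61 (SE, n = 5 pairs; adjusted p = 0.00651). Cd69, which blocks S1PR1 at the cell surface, measured 447, 526, 221, 809 and 489 CPM in gut and 163, 166, 105, 113 and 77.3 CPM in spleen, with no overlap and a log2 fold change of 1.94 ± 0.29 (adjusted p = 0.00337). Itga1, the collagen-binding chain of CD49a, measured 118, 87.8, 119, 178 and 63.4 CPM in gut and 20.2, 19.5, 69.4, 108 and 19.8 CPM in spleen. Its groups overlapped, because the spleen library of IgG batch 181212 exceeded the gut libraries of anti-IL-2 batch 181212 and IgG batch 190306, while gut was higher within all 5 pairs (log2 fold change 1.53 ± 0.30, adjusted p = 0.00913; 0.0772 without the 2 pairs with most macrophage RNA).

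The regulators and other members of the residence list also rose. Rgs1, a G protein regulator that dampens chemokine receptor signals (chr1:144242296-144249242), measured 523, 620.4, 216, 656 and 336 CPM in gut and 49.5, 52, 37.3, 30.0 and 18.4 CPM in spleen (log2 fold change 3.62 ± 0.29, adjusted p = 0.000352). The transcriptional repressor Hic1, which retinoic acid induces in gut T cells, measured 156, 110.2, 193, 177 and 158 CPM in gut and 13.4, 17.6, 31.1, 24.8 and 28.9 CPM in spleen (log2 fold change 2.81 ± 0.15, adjusted p = 5.64e-05). In both genes the lowest gut library was several-fold above the highest spleen library. Xcl1, the chemokine that attracts cross-presenting dendritic cells (chr1:164931644-164935527), measured 87.8, 75.2, 46.8, 49.2 and 61.3 CPM in gut and 6.52, 4.81, 2.25, 6.99 and 4.92 CPM in spleen (log2 fold change 3.68 ± 0.20, adjusted p = 5.48e-05). Ahr rose by 1.84 on the log2 scale, the ATP receptor P2rx7 by 2.21, Bhlhe40 by 1.47, Litaf by 1.28 and Runx3, a factor of the residence and cytotoxic programmes, by 0.67. The member that missed the threshold was Ctla4 (log2 fold change 0.63 ± 0.21, adjusted p = 0.0547), which was higher in gut in every pair except anti-IL-2 batch 190306.

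**Figure D2:**
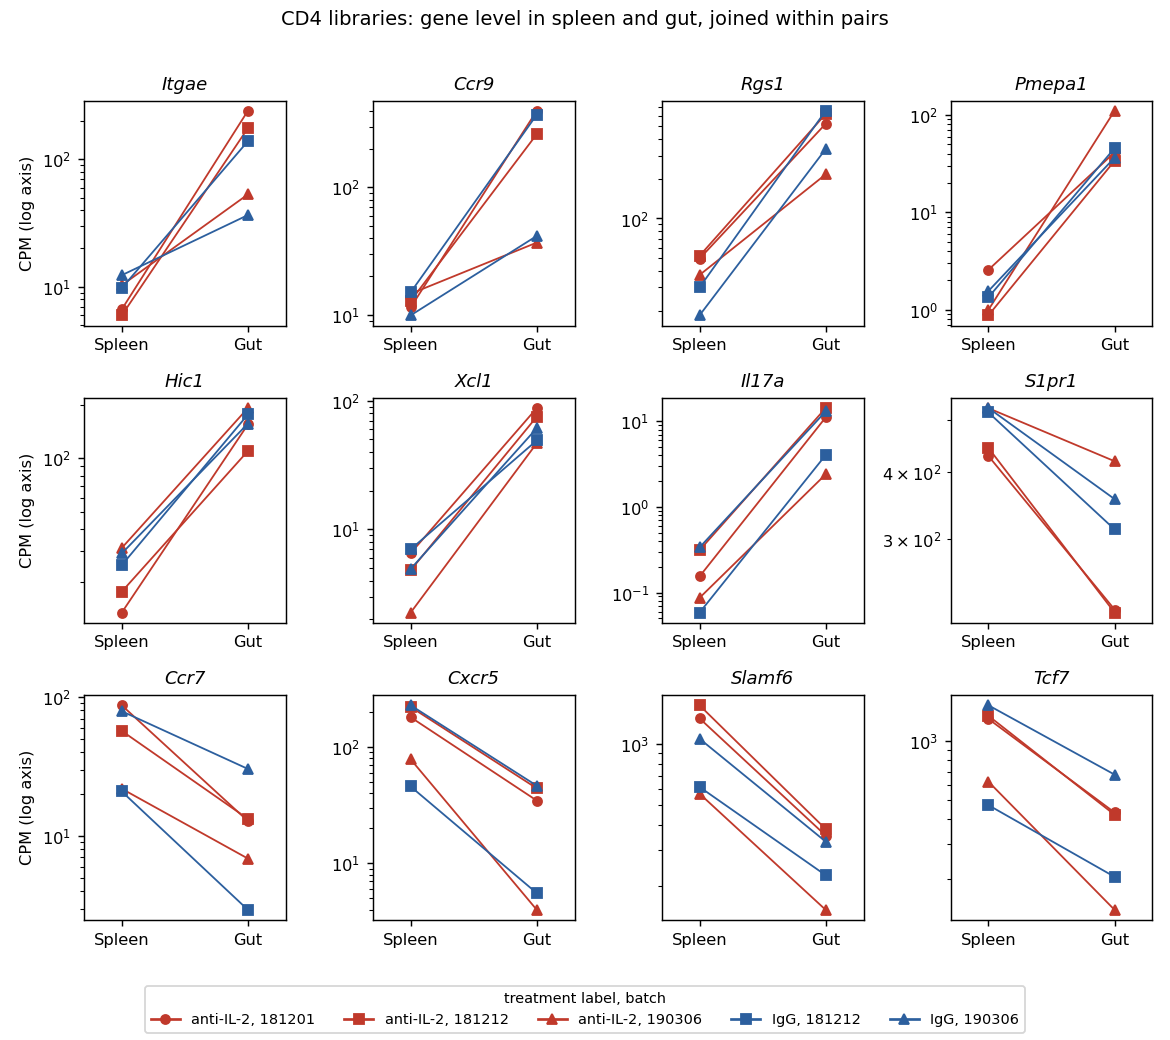
CPM (log axis) of 12 genes in spleen and gut CD4 libraries, a line joining the 2 libraries of a pair, red for anti-IL-2 and blue for IgG, with circles for batch 181201, squares for 181212 and triangles for 190306. Itgae and Ccr9 rise least in batch 190306, Pmepa1 rises from at most 2.57 CPM to at least 33.9 CPM, and S1pr1, Ccr7, Cxcr5, Slamf6 and Tcf7 fall in all 5 pairs.

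Chemokine receptors that guide cells into gut and inflamed tissue were mixed: of 15 measured, 8 were higher and 1 lower in gut (median log2 fold change 0.68). Ccr9 (chr9:123678439-123784330), the receptor for CCL25, measured 399, 262, 36.8, 372 and 41.6 CPM in gut and 11.4, 12.8, 14.6, 15 and 9.88 CPM in spleen. The groups did not overlap, yet the gut libraries fell into high values in batches 181201 and 181212 and low values in batch 190306, under both treatment labels. The log2 fold change was 3.56 ± 0.68 (adjusted p = 0.00909), and the call was lost at adjusted p = 0.0621 without the 2 pairs with most macrophage RNA and at 0.0928 without the 2 pairs with fat and pancreas RNA. Ccr8, a receptor of skin-homing and regulatory cells, rose from 7.81 to 12.2 CPM to 35.3 to 63.0 CPM (log2 fold change 2.24 ± 0.10, adjusted p = 1.25e-05). The inflammatory receptor Ccr1 rose by 2.66 on the log2 scale, Ccr4 by 0.76 and Cxcr6, the CXCL16 receptor, by 0.68. Gpr15, a receptor that brings T cells to the colon, ran the other way across batches: it measured 10.9, 9.72, 121, 17.3 and 70.3 CPM in gut and 14.4, 9.996, 48.9, 14.3 and 20.01 CPM in spleen. It was high in gut in batch 190306, where Ccr9 was low, and close to its spleen value in the other 3 pairs, so that over 5 pairs the difference did not pass (log2 fold change 0.70 ± 0.35, adjusted p = 0.16). The shared integrin chain Itgb7 differed little (log2 fold change 0.17 ± 0.05, adjusted p = 0.0235, lost when any 1 of 4 of the pairs was left out), and Itga4, its partner in the gut-homing integrin, fell by 1.06 (SE 0.19).

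The genes that let a T cell leave tissue and enter lymph nodes were lower in gut. Of 15 measured members of the exit and lymphoid homing list 10 fell and 2 rose (median log2 fold change -0.61), with all gut libraries under all spleen libraries in 4 members, against 6.49% of all genes tested. S1pr1 (chr3:115710433-115715072) measured 222, 219, 419, 313 and 356 CPM in gut and 428, 443, 526, 516 and 526 CPM in spleen, a modest shift without overlap (log2 fold change -0.72 ± 0.10, adjusted p = 0.00153). Its regulator Klf2 measured 142, 233, 315, 277 and 475 CPM in gut and 246, 318, 468, 365 and 504 CPM in spleen. Here the groups overlapped across batches, although gut was lower within each pair (log2 fold change -0.46 ± 0.09, adjusted p = 0.00643). Ccr7 (chr11:99144196-99155077) measured 12.8, 13.3, 6.88, 2.94 and 30.4 CPM in gut and 87.2, 57.0, 21.9, 20.9 and 79.0 CPM in spleen. Gut was lower in each pair, although the highest gut value, in IgG batch 190306, exceeded the spleen values of anti-IL-2 batch 190306 and IgG batch 181212. The log2 fold change was -2.09 ± 0.23 (adjusted p = 0.000831). Klf3, Itgb1, Cxcr4 and S1pr4 also fell, with log2 fold changes of -0.74, -1.17, -0.61 and -0.41, and the members that rose were the adhesion genes Itgal (0.30) and Selplg (0.43).

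Naive and stem-like memory genes, some of which belong to the exit list as well, fell together: 15 of 17 were lower in gut (median log2 fold change -0.72). Tcf7, which encodes TCF-1, the factor that keeps T cells able to renew, measured 434, 423, 139, 204 and 677 CPM in gut and 1300.4, 1349, 623, 473 and 1526 CPM in spleen. It was lowest in gut of anti-IL-2 batch 190306, and gut was below spleen in each pair while the groups overlapped (log2 fold change -1.56 ± 0.15, adjusted p = 0.000439). Slamf6, a surface marker of stem-like cells (chr1:171917515-171953170), measured 355, 382, 153, 226 and 331 CPM in gut and 1339.8, 1553, 570.2, 615 and 1063 CPM in spleen, with no overlap (log2 fold change -1.79 ± 0.09, adjusted p = 1.32e-05). Nsg2 fell by 1.74 on the log2 scale, Actn1 by 0.72, Foxp1, a quiescence factor, by 0.51, and Lef1 by 0.35. Igfbp4 measured 72.8, 8.06, 5.33, 18.0 and 9.25 CPM in spleen and 0.688 to 3.15 CPM in gut. The high spleen value of anti-IL-2 batch 181201 stood alone, and the log2 fold change of -3.15 ± 0.75 (adjusted p = 0.0181) did not pass without IgG batch 181212 (0.0912) or IgG batch 190306 (0.0514). The members that did not pass were Id3 (log2 fold change -0.70) and the chromatin organiser Satb1 (0.04).

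Follicular helper T cells give help to B cells in germinal centres, and their genes were lower in gut as well. Of 13 measured, 9 fell (median log2 fold change -1.07). Cxcr5, the receptor that brings them to follicles (chr9:44511787-44561877), measured 34.6, 44.0, 3.99, 5.54 and 46.3 CPM in gut and 179.6, 219.9, 78.2, 45.7 and 227 CPM in spleen. Gut was lower in each pair, although the highest gut value, in IgG batch 190306, reached the lowest spleen value (log2 fold change -2.74 ± 0.29, adjusted p = 0.00093). Sostdc1, a secreted BMP and Wnt antagonist made by these cells, measured 11.8, 14, 0.744, 2.66 and 14.3 CPM in gut and 112, 174, 37.6, 34.8 and 122 CPM in spleen, with no overlap and a log2 fold change of -3.62 ± 0.28 (adjusted p = 0.000267). The inhibitory receptor Btla fell by 1.91 on the log2 scale, Cd200 by 1.45, Tox2 by 1.26, the IL-6 signal transducer Il6st by 1.07, Sh2d1a (SAP) by 0.72 and the cytokine Il21 by 0.69. Il6ra, the IL-6 receptor chain outside the list, was among the 15 genes with the largest fall (118, 118, 48.4, 37.8 and 119 CPM in spleen, 11.6, 14.1, 4.07, 6.87 and 19.1 CPM in gut, log2 fold change -3.00 ± 0.16). The lineage factor Bcl6 did not pass (log2 fold change -0.28 ± 0.22, adjusted p = 0.353) and measured 55.9, 50.6, 67.4, 30.4 and 77.3 CPM in gut and 81.0, 99.3, 42.5, 31.9 and 106 CPM in spleen, higher in gut in anti-IL-2 batch 190306 and lower in the other 4 pairs. Pdcd1 (PD-1), which follicular helper and chronically stimulated cells share, was likewise not called (log2 fold change 0.15 ± 0.15, adjusted p = 0.47). Of the B and plasma cell markers, Cd22 also fell (149.6, 182, 74.6, 61.3 and 145 CPM in spleen, 21.7, 28.2, 17.0, 5.43 and 50.1 CPM in gut, log2 fold change -2.46 ± 0.27) and Jchain rose (3.77). The call of Jchain was lost without anti-IL-2 batch 181212 or IgG batch 181212. Cd79b stayed at or below 3.11 CPM in every library, and Ms4a1 and Pax5 did not pass the filter on low counts. The part of other cells in the difference of Cd22 was not tested.

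Cytokine genes of all 3 effector helper subsets were among those that rose in gut. Among Th17 genes, which defend mucosal surfaces, 5 of 10 rose and 2 fell (median log2 fold change 0.65). Il17a (chr1:20730905-20734496) measured 11.2, 14.3, 2.41, 4.05 and 13.1 CPM in gut and 0.154, 0.312, 0.0866, 0.0583 and 0.336 CPM in spleen, with a log2 fold change of 5.49 ± 0.21 (adjusted p = 9.40e-06). All gut libraries lay above all spleen libraries, on 752 reads in gut and 19 reads in spleen over 5 libraries each. Il22, the epithelial barrier cytokine, measured 5.03, 3.37, 0.701, 0.998 and 5.98 CPM in gut and 0.154, 0.187, 0, 0 and 0.126 CPM in spleen (267 against 9 reads; log2 fold change 5.08 ± 0.36, adjusted p = 5.89e-05). With so few spleen reads the fitted size of both changes depends on the prior count. Il1r1, the IL-1 receptor, rose by 0.89 on the log2 scale, and Ccr6 by 0.77 (adjusted p = 0.0494), a call lost without anti-IL-2 batch 181201, anti-IL-2 batch 181212 or IgG batch 190306. Il21 and Batf fell by 0.69 and 0.49.

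Of 19 Th1 genes and inflammatory cytokines, 12 rose and 1 fell (median log2 fold change 1.12). Ifng, the defining Th1 cytokine, measured 209.9, 249.6, 156, 292 and 245 CPM in gut and 56.4, 82.5, 84.2, 64.6 and 39.0 CPM in spleen. No gut library overlapped a spleen library (log2 fold change 1.84 ± 0.25, adjusted p = 0.00217). The lineage factor Tbx21 did not pass (log2 fold change 0.25 ± 0.09, adjusted p = 0.0599). Both chains of the IL-12 receptor rose, Il12rb1 by 1.3 and Il12rb2 by 1.12 on the log2 scale, as did the chemokines Ccl3 (1.79) and Ccl4 (1.61), Tnf (1.3) and Csf2, which encodes GM-CSF (2.24). Il2 measured 5.09, 5.67, 4.73, 2.11 and 8.07 CPM in gut and 2.93, 4.12, 1.47, 2.45 and 1.77 CPM in spleen and passed narrowly (log2 fold change 1.01 ± 0.34, adjusted p = 0.0481), with adjusted p-values of 0.0674 to 0.134 when any 1 of 4 of the pairs was left out. The member that fell was the IL-18 receptor chain Il18r1 (-0.25).

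Of 9 Th2 genes, 6 rose (median log2 fold change 1.25). Gata3, the lineage factor, measured 198, 214, 481, 321 and 408 CPM in gut and 150.2, 171, 313, 258 and 223 CPM in spleen (log2 fold change 0.51 ± 0.09, adjusted p = 0.00292). Il17rb, the IL-25 receptor, measured 9.22, 9.66, 21.8, 62.1 and 4.12 CPM in gut and 1.08, 0.937, 2.95, 4.31 and 0.799 CPM in spleen and was highest in gut of IgG batch 181212 (log2 fold change 3.19 ± 0.20, adjusted p = 3.96e-05). Il13 measured 0.62, 0.748, 24.5, 2.83 and 5.25 CPM in gut and 0.154, 0.25, 2.12, 1.22 and 0.547 CPM in spleen, so its level varied widely between pairs even though gut was higher in each pair (log2 fold change 2.63 ± 0.40). The tissue repair factor Areg rose by 3.25, and Il4 did not pass (1.25, adjusted p = 0.117).

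Regulatory T cell genes were divided, with 7 of 16 higher and 2 lower in gut (median log2 fold change 0.67). Foxp3, the lineage factor, measured 146, 165, 53.0, 61.8 and 97.2 CPM in gut and 32.2, 35.7, 71.0, 38.7 and 66.9 CPM in spleen. Gut was higher in 4 pairs and lower in anti-IL-2 batch 190306, and the difference did not pass (log2 fold change 1.03 ± 0.44, adjusted p = 0.113). Il10 measured 66.4, 82.0, 16.5, 33.1 and 42.8 CPM in gut and 14.6, 14, 7.06, 9.32 and 7.23 CPM in spleen and was above the spleen library of its pair throughout (log2 fold change 2.09 ± 0.20, adjusted p = 0.000458). Ikzf4 rose by 1.5 on the log2 scale, Tnfrsf18 (GITR) by 0.79, Capg by 0.97 and the ectoenzyme Entpd1 (CD39) by 0.98, whereas Ikzf2 (Helios), a factor of thymus-derived regulatory cells, fell by 1.08 (SE 0.21), and Gpr83 by 2.02.

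Cytotoxic genes are expressed by a subset of CD4 cells in inflamed tissue. Here 9 of 17 rose and 2 fell (median log2 fold change 0.67). Gzma measured 941, 531, 814, 2291 and 86.7 CPM in gut and 36.4, 27.4, 162, 145 and 40.7 CPM in spleen. It ranged widely within gut and was lowest in IgG batch 190306, which still exceeded its own spleen library (log2 fold change 3.31 ± 0.62, adjusted p = 0.00857; 2.47 and 0.078 without the 2 pairs with fat and pancreas RNA). Gzmb measured 1213, 896, 992, 884 and 614 CPM in gut and 228, 209, 597, 708 and 211 CPM in spleen (log2 fold change 1.42 ± 0.33, adjusted p = 0.0168), and its call was lost without anti-IL-2 batch 181201 (0.0615) or anti-IL-2 batch 181212 (0.0565). Fasl, the ligand that triggers Fas, rose from 23.3 to 48.1 CPM to 84.3 to 107 CPM (log2 fold change 1.52 ± 0.12), Ctsw rose by 1.49, Nkg7 by 0.81 and the granule proteoglycan Srgn by 0.58. Prf1 (perforin) did not pass (0.36, adjusted p = 0.106), and Eomes and Lamp1 fell by 0.70 and 0.24.

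Receptors that restrain or costimulate T cells changed in both directions. In the inhibitory list 7 of 15 rose, led by Cd244 (2.41), Cd160 (1.91), Havcr2, which encodes TIM-3 (1.17), and Entpd1, and 2 fell, Btla and the exhaustion factor Tox (-0.51). In the TNF receptor family list 10 of 17 rose, among them Tnfsf11, the gene of RANKL (1.42), Tnfrsf9, the gene of 4-1BB (1.29), and Tnfrsf18. The 4 members that fell were Cd27 (-0.59), Tnfrsf14 (-0.60), Tnfsf8 (-0.65) and Tnfrsf25 (-0.67).

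**Figure D3:**
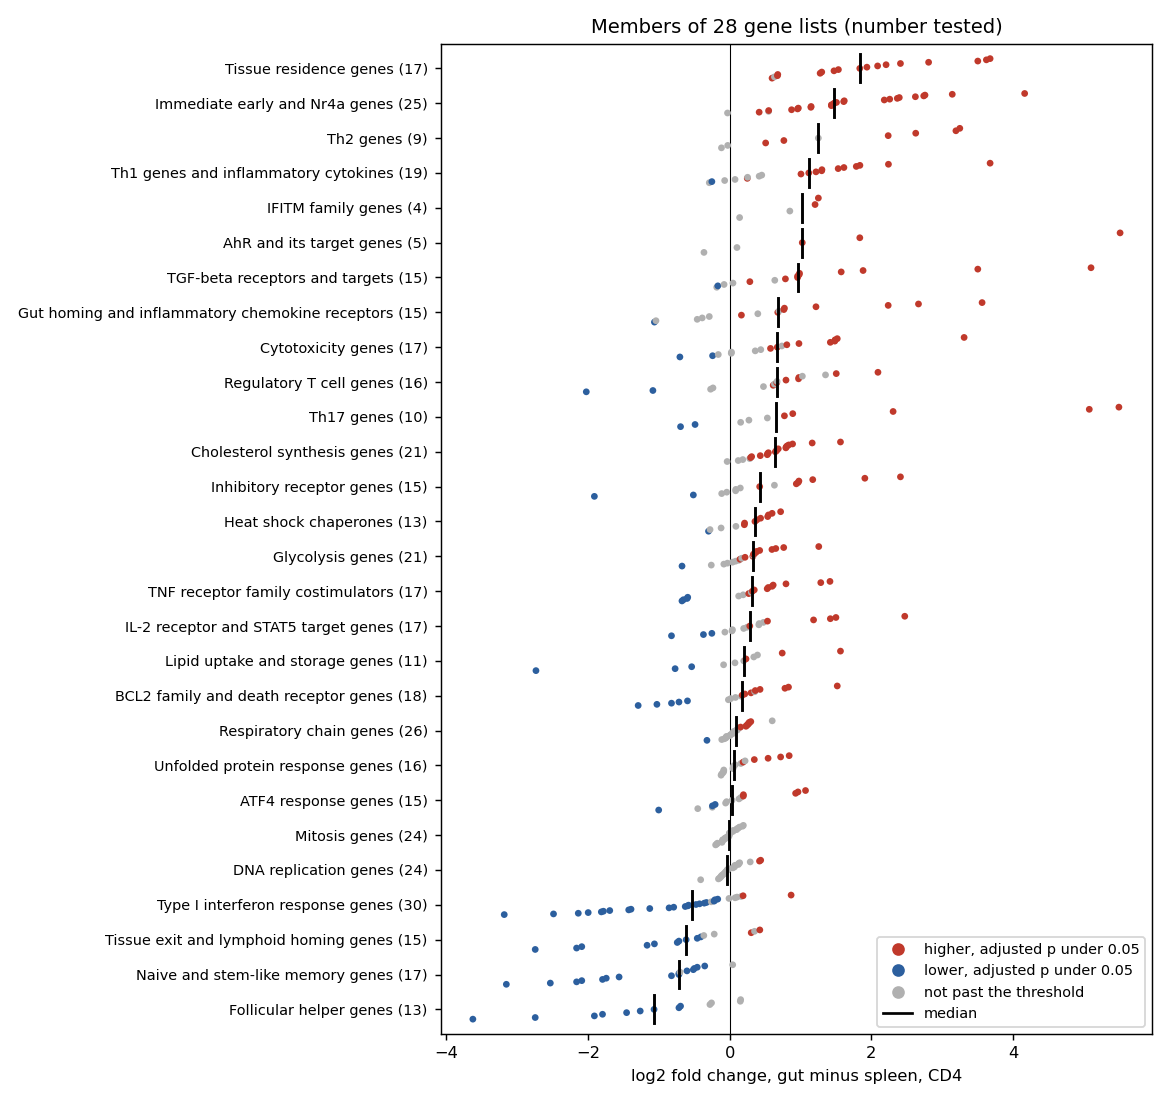
Log2 fold change (gut minus spleen) of each measured member of the 28 programme lists, red where higher in gut, blue where lower and grey where the adjusted p missed 0.05, with a black bar at the median of the list. The residence, immediate early and cholesterol lists lie above 0, the naive, follicular helper and interferon lists below it, and the mitosis list around it.

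TGF-beta signalling retains T cells in epithelium and induces Itgae. Of its receptors, signal carriers and targets, 10 of 15 were higher in gut and 1 lower (median log2 fold change 0.96). Pmepa1, a feedback inhibitor of SMAD signalling (chr2:173224458-173276533), measured 41.4, 33.9, 111, 45.7 and 36.5 CPM in gut and 2.57, 0.875, 0.996, 1.34 and 1.56 CPM in spleen. The groups lay far apart, and the gut of anti-IL-2 batch 190306 was the highest. Its log2 fold change of 5.10 ± 0.36 (adjusted p = 0.000177) was the largest of the genes that the naming rule admits (mean log2 CPM of at least 2, the same direction in all 5 pairs, no clone names or marker genes). Smad7, which blocks the activated receptor, measured 135, 136, 176, 148 and 196 CPM in gut and 50.1, 42.0, 59.4, 54.3 and 59.1 CPM in spleen (log2 fold change 1.57 ± 0.06, adjusted p = 7.86e-06). The SMAD repressors Skil and Ski rose by 1.88 and 0.96 on the log2 scale, the ligand Tgfb1 by 0.79 and its processing protease Furin by 0.99. Among receptors and signal carriers, Tgfbr2 rose by 0.28 and Smad4 fell by 0.17, and Tgfbr1 (-0.18), Smad2 (0.05) and Smad3 (-0.08) did not pass. Skil, Ski, Tgfb1 and Pmepa1 all differed most in anti-IL-2 batch 190306, the pair with the second smallest change in Itgae.

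AhR senses dietary and microbial ligands in the gut and induces its own repressor, Ahrr. Of 5 members measured, 3 rose: Ahr itself (189, 154, 533, 289.9 and 325 CPM in gut and 53.8, 54.1, 119, 102 and 72.0 CPM in spleen), Ahrr and Tiparp. Ahrr (chr13:74211118-74292331) measured 6.20, 3.93, 1.45, 10.3 and 0.734 CPM in gut and 0.103, 0.187, 0, 0.117 and 0.042 CPM in spleen, on 384 and 8 reads. It was higher in gut in each pair, least so in IgG batch 190306 (log2 fold change 5.51 ± 0.38, adjusted p = 5.39e-05). Tiparp rose by 1.02 (adjusted p = 0.0115; 0.0515 without anti-IL-2 batch 181201), Nqo1 and the partner Arnt did not pass, and Cyp1a1 was too low to test. The 160 bases before the start of Ahrr are printed because the gene is the most changed of this list and the stretch holds an AhR response element. It lies at chr13:74292332-74292491 on the minus strand (RefSeq sequence, GRCm38.p6, the same build as mm10). The letters searched were TNGCGTG on both strands in the 250 bases before each start, and the match, in capitals, begins 29 bases before the start.
Ahrr: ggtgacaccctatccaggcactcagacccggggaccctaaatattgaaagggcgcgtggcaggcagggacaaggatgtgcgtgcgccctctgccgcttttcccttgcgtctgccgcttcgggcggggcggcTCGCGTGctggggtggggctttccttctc
Of 27025 promoters of the RefSeq set 4.76% held these letters in that window, as did 1 of 6 genes of the AhR list. Such a match describes the sequence and does not show binding.

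The treatment labels concern IL-2, which signals through STAT5, and the tissue difference of that pathway was uneven. In its list 6 of 17 genes rose and 3 fell (median log2 fold change 0.28), against 20.8% higher and 19.7% lower of all genes tested. Cish, a feedback inhibitor that STAT5 induces, measured 213, 217, 496, 311 and 287 CPM in gut and 36.8, 35.2, 90.2, 87.1 and 37.9 CPM in spleen. It rose without overlap under both treatment labels (log2 fold change 2.47 ± 0.15, adjusted p = 7.87e-05). Il2ra, the high-affinity receptor chain, measured 97.1, 94.1, 343, 201 and 117 CPM in gut and 60.8, 62.1, 221, 256 and 65.6 CPM in spleen. It was higher in gut in 4 pairs and lower in IgG batch 181212, and did not pass (log2 fold change 0.48 ± 0.17, adjusted p = 0.0636). Levels of Il2ra in either tissue varied more between pairs than within them. Socs2 measured 9.71, 10.3, 23.0, 38.1 and 3.50 CPM in gut and 2.77, 1.69, 16.0, 18.6 and 2.48 CPM in spleen (log2 fold change 1.18 ± 0.29, adjusted p = 0.018), a call lost without anti-IL-2 batch 181201 (0.0601) or IgG batch 181212 (0.0537). The receptor subunit Il2rg and its kinase Jak3 rose by 0.28 and 0.53, Cdkn1a by 1.5, while Bcl2, a survival target, fell by 0.82 on the log2 scale. Il2rb, Stat5a and Stat5b did not pass, with log2 fold changes of 0.03, -0.07 and 0.04.

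Immediate early genes, which respond within minutes to antigen or to handling of the tissue, were higher in gut in 23 of 25 cases (median log2 fold change 1.47). Fosb, a subunit of AP-1, measured 1032, 1170.2, 365, 2109.6 and 1563 CPM in gut and 158, 173, 23.7, 28.3 and 36.0 CPM in spleen. Its spleen level was higher in the anti-IL-2 libraries of batches 181201 and 181212 than in the other spleen libraries, and every gut library exceeded them all (log2 fold change 4.16 ± 0.67, adjusted p = 0.00489). Nr4a1, an orphan nuclear receptor that reports T cell receptor signalling, measured 359, 457, 246, 323 and 635 CPM in gut and 63.0, 116, 139.8, 51.4 and 84.0 CPM in spleen (log2 fold change 2.18 ± 0.32, adjusted p = 0.00295). Nr4a2, Nr4a3, Egr1, Jun and Fos rose by 2.76, 2.37, 2.26, 2.74 and 2.62 on the log2 scale, and Egr2 and Ier3 did not pass. The number called moved with the pairs used: 15 without anti-IL-2 batch 181201, 8 without the 2 pairs with most macrophage RNA and 11 without the 2 pairs with fat and pancreas RNA. Over all genes 1934, 1184 and 1310 were higher in gut in these sets, against 2414 with all pairs. Colon and spleen need different dissociation, which the labels do not detail. Tissue and handling cannot be told apart in these libraries.

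Chaperones and stress pathways moved less. Of 13 heat shock chaperones 9 rose and 1 fell (median 0.36), with Hspa8 up by 0.55, Hspa5 (BiP) by 0.72 and Hsp90aa1 by 0.54 on the log2 scale. Without the macrophage pairs 2 members rose, and without the fat and pancreas pairs 3 did. In these sets 1184 and 1310 of all genes were higher in gut, against 2414 with all pairs. Hspa1a, the stress-induced member, measured 0.757, 115, 6.83, 1.33 and 18.3 CPM in gut and 0.103, 71.5, 11.4, 2.39 and 15.7 CPM in spleen. Its level varied far more between pairs than between tissues, and the difference did not pass (log2 fold change 0.09 ± 0.29, adjusted p = 0.833). Its near-identical copy Hspa1b could share its reads, so the value is uncertain. Of 16 unfolded protein response genes 5 rose, with the largest changes in Dnajb9 (0.84), Hspa5 (0.72) and Edem1 (0.54). The call of Dnajb9 was lost without IgG batch 190306 (adjusted p = 0.0618). In the ATF4 list 5 of 15 rose, among them Atf4 (1.07) and the amino acid transporter chain Slc3a2 (0.93), and 3 fell (Trib3, Shmt2 and Psat1). Of all genes tested 20.8% were higher and 19.7% lower in gut, and no list was tested against these shares.

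Genes that type I interferon induces were lower in gut. Of 30 measured, 23 fell and 2 rose (median log2 fold change -0.53), and the medians of the 5 pairs were -0.33, -0.43, -0.65, -0.47 and -0.81. Interferon binds its receptor, activates a complex that holds STAT2 and IRF9, and that complex binds a short element before its target genes, searched here on both strands as the letters GAAA, any 2 bases and GAAA again. The promoters of 3 genes that fell and of 1 that did not pass are printed as the 160 bases before the start (RefSeq, GRCm38.p6), in the direction of the gene, with matches on either strand in capitals.
Ifit3: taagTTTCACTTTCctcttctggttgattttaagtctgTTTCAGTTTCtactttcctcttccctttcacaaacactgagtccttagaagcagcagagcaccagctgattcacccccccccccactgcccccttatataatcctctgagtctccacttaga
Rsad2: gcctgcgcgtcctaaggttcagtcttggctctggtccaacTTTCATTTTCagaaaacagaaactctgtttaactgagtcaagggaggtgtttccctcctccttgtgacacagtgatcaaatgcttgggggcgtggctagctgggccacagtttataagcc
Ifit1: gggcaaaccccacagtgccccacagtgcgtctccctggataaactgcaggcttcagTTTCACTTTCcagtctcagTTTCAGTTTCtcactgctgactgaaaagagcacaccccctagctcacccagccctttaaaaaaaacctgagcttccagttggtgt
Isg15: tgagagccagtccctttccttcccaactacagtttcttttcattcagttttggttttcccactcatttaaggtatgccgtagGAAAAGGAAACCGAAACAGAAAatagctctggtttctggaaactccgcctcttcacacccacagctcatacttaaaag
They lie at chr19:34583369-34583528 (plus strand), chr12:26456453-26456612 (minus), chr19:34640729-34640888 (plus) and chr4:156200819-156200978 (minus). Isg15 holds 3 overlapping matches, which begin 78 to 66 bases before the start, Ifit3 and Ifit1 hold 2 each and Rsad2 holds 1. In the 250 bases before the start, 3.46% of the 27025 promoters of the table held a match. Of the 21 genes of the interferon list found there, 8 did: 6 of the 16 that fell (Ifit1, Ifit3, Oas1a, Oas3, Rsad2 and Bst2), 2 of the 3 that did not pass (Isg15 and Stat2) and 0 of the 2 that rose.

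Rsad2 (viperin, an antiviral enzyme) measured 6.47, 8.41, 0.876, 1.61 and 4.57 CPM in gut and 26.4, 36.4, 11.2, 8.68 and 29.4 CPM in spleen. All gut libraries lay below all spleen libraries, and both tissues were lowest in anti-IL-2 batch 190306 and IgG batch 181212 (log2 fold change -2.49 ± 0.21, adjusted p = 0.000199). Ifit3, which binds viral RNA complexes, measured 6.20, 8.17, 2.32, 2.88 and 6.44 CPM in gut and 28.4, 35.2, 11.8, 9.38 and 31.0 CPM in spleen (log2 fold change -2.14 ± 0.11, adjusted p = 1.32e-05), again without overlap. A near-identical neighbour, Ifit3b, could share its reads, so that level is uncertain. Ifit1 measured 15.5, 15.3, 3.99, 4.93 and 9.43 CPM in gut and 38.1, 66.9, 13.5, 13.4 and 32.5 CPM in spleen, lower in gut in each pair with some overlap across pairs (log2 fold change -1.69 ± 0.12, adjusted p = 6.47e-05). Usp18, the feedback inhibitor of the receptor, fell by 1.81, Oasl1 by 2.0, Mx1 by 1.39, Cmpk2 by 1.13, Dhx58 by 0.79 and Irf7, which amplifies the response, by 0.48. The signal carriers Stat2 and Irf9 differed little: Stat2 (0.10) did not pass and Irf9 fell by 0.21. Isg15 measured 26.5, 20.9, 12.2, 10.4 and 20.9 CPM in gut and 22.2, 33.1, 15.5, 9.55 and 31.6 CPM in spleen and did not pass (log2 fold change -0.26 ± 0.15, adjusted p = 0.201). The members that rose were Isg20 (0.87 ± 0.13) and Ddx58, which encodes the sensor RIG-I (0.19 ± 0.06). The IFITM genes, membrane proteins that block viral entry and that T cells also express outside interferon responses, rose in 2 of 4 cases: Ifitm2 and Ifitm3 rose by 1.25 and 1.20, and Ifitm1 (0.85) and Ifitm10 (0.14) did not pass. Fewer interferon genes fell in smaller sets of pairs, 14 without the 2 pairs with most macrophage RNA and 16 without the 2 pairs with fat and pancreas RNA. Over all genes 1055 and 1229 were lower in gut in these sets, against 2288 with all pairs.

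Cell cycle genes showed no shared direction. Of 24 mitosis genes 0 passed in edgeR, DESeq2 or limma voom, and 0 had an unadjusted p under 0.05 in edgeR. By pair their medians were 0.49, 0.44, -0.51, -0.45 and -0.07, higher in gut in the anti-IL-2 pairs of batches 181201 and 181212 and lower in the other pairs. Mki67, the proliferation marker, measured 679, 887, 747, 777 and 776 CPM in gut and 620.3, 717, 1208, 1234 and 814 CPM in spleen (log2 fold change -0.20 ± 0.16, adjusted p = 0.374). Without the 2 pairs with fat and pancreas RNA, which are the 2 pairs with a positive median, 8 mitosis genes fell. Of 24 replication genes 2 rose, against 20.8% of all genes tested: the sliding clamp Pcna (0.44 ± 0.10) and the ligase Lig1 (0.42 ± 0.13). The call of Pcna was lost without anti-IL-2 batch 181201 (adjusted p = 0.0516). That of Lig1 was lost without anti-IL-2 batch 181201 (0.122), 181212 (0.0984) or 190306 (0.068), or without IgG batch 190306 (0.0618).

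Cholesterol synthesis genes, which the factor SREBP-2 controls, rose in 17 of 21 cases (median log2 fold change 0.64). In 12 of them all 5 gut libraries lay above all 5 spleen libraries, as they did in 7.54% of all genes tested. Insig1, which holds SREBP back, measured 46.1, 53.7, 34.2, 62.3 and 35.7 CPM in gut and 22.1, 23.7, 19.6, 18.0 and 17.8 CPM in spleen. Gut lay above spleen without overlap, most in IgG batch 181212 and least in anti-IL-2 batch 190306 (log2 fold change 1.16 ± 0.13, adjusted p = 0.000668). Lss, which closes the sterol rings, measured 35.1, 36.2, 49.6, 46.5 and 41.6 CPM in gut and 19.5, 19.4, 28, 29.2 and 23.5 CPM in spleen, an even shift across pairs (log2 fold change 0.81 ± 0.06, adjusted p = 5.51e-05). Fdft1, the squalene synthase gene, rose by 0.67. The exporters of cholesterol moved the other way: Abca1 measured 2.68, 5.11, 2.72, 1.88 and 1.75 CPM in gut and 34.9, 28.7, 11.8, 11.8 and 12.3 CPM in spleen (log2 fold change -2.73 ± 0.21, adjusted p = 0.000129), Abcg1 fell by 0.77, and Mylip, a ubiquitin ligase gene that sterols induce, fell by 0.54 (adjusted p = 0.0428; 0.0859 to 0.123 when any 1 of 4 of the pairs was left out). Macrophages also express Abca1, and the part of macrophage RNA in its difference was not tested. In the lipid list as a whole 3 of 11 rose and 3 fell, against 20.8% higher and 19.7% lower of all genes tested.

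Of 21 glycolysis genes 12 rose and 1 fell, in small steps (median 0.33): the glucose transporter Slc2a3 rose by 0.76, Hk1 by 0.38, Pkm by 0.35 and Ldha by 0.37, and Pdk1, which keeps pyruvate out of mitochondria, fell by 0.67. Gapdh, Pgk1, Pgam1 and Eno1 had very low counts for such abundant enzymes, and since each has many processed copies their values are uncertain. Of 26 respiratory chain genes 8 rose, among them Cox4i1 (0.28), and 1 fell, with a median of 0.09. Of all genes tested 20.8% were higher and 19.7% lower in gut. Among 18 BCL2 family and death receptor genes 8 rose and 5 fell. The genes that fell were Bcl2, the receptor Fas (-0.60) and the BH3-only death genes Bmf (-1.29), Bbc3 (-1.03) and Bid (-0.72), and those that rose included Bcl2a1b (0.78), which has near-identical copies.

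Some of the largest differences lay outside these lists. Penk, the precursor of enkephalin peptides, measured 44.1, 63.8, 22.3, 33.8 and 30.1 CPM in gut and 2.93, 4.25, 1.6, 2.80 and 3.24 CPM in spleen, and its change was very even across pairs (log2 fold change 3.68 ± 0.12, adjusted p = 3.98e-06). Osgin1, an oxidative stress response gene, measured 61.7, 66.6, 59.5, 94.4 and 31.0 CPM in gut and 3.13, 2.87, 2.77, 1.86 and 3.07 CPM in spleen (log2 fold change 4.40 ± 0.28, adjusted p = 0.000111). The adhesion receptor Adgrg5 rose by 4.27, Abi3 by 3.66, Spsb1 by 3.64, the sialic acid receptor Siglecf by 3.42 and Cables1 by 3.20. Among the genes with the largest fall were Ica1l (-3.22), Snn (-2.91), Fam43a (-2.86), the transcription factor Cebpa (-2.70), the laminin-binding integrin Itga7 (-2.48), the IGF-1 receptor Igf1r (-2.26), Gpm6b (-2.23) and Zan (-2.23). Cebpa, which myeloid cells express, measured 18.4, 29.1, 14.9, 5.36 and 36.2 CPM in spleen, and the part of myeloid RNA in its fall was not tested.

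**Figure D4:**
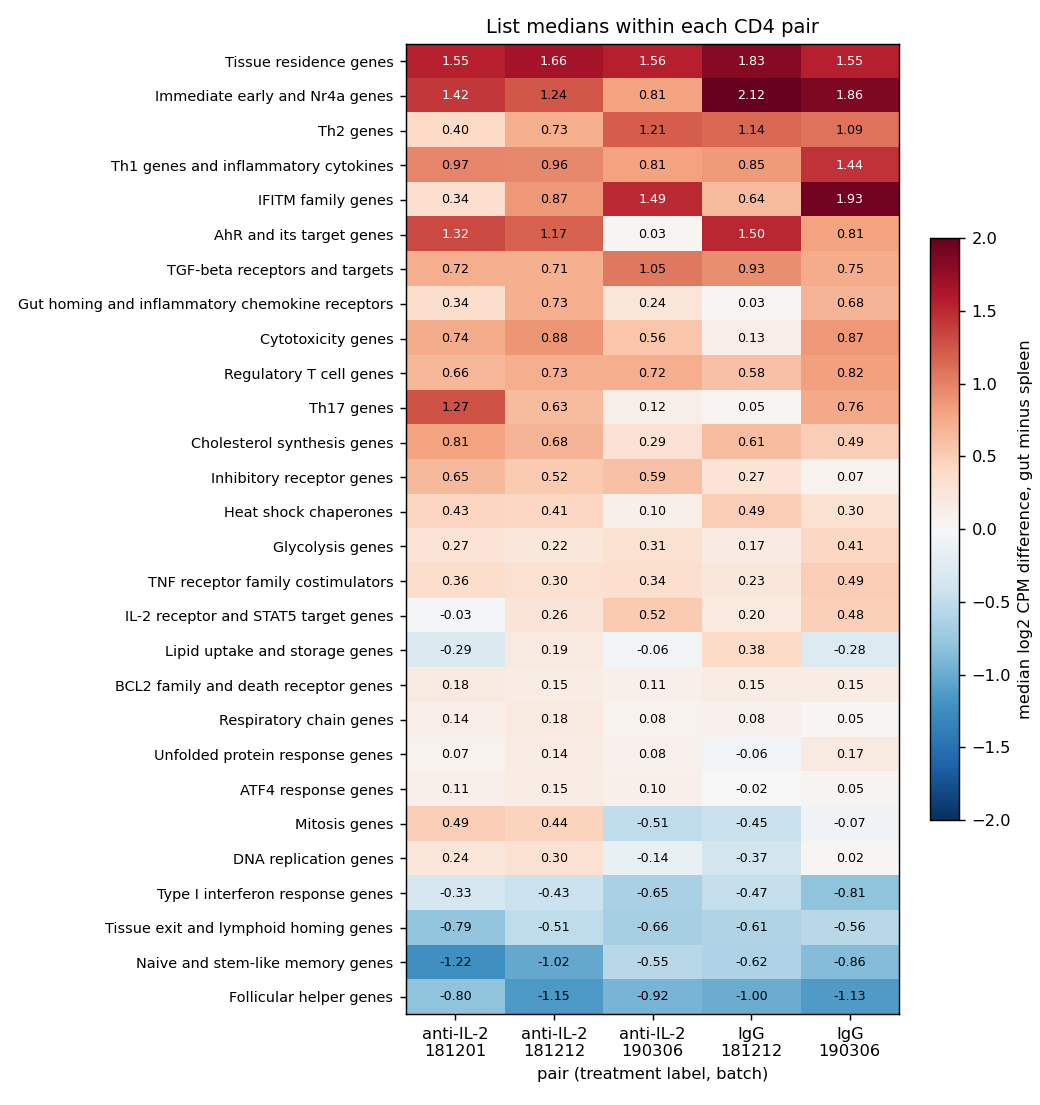
Heat map of the median log2 difference (gut minus spleen, from log2 CPM) of each programme list in each of the 5 pairs, red for higher in gut and blue for lower. The residence list has medians of 1.55 to 1.83 in every pair, the naive, follicular helper and interferon lists are negative in every pair, and the mitosis list changes sign.

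The pairs carried different treatment labels, and the main lists kept their direction under both. By pair the residence medians were 1.55, 1.66, 1.56, 1.83 and 1.55, those of the naive list -1.22, -1.02, -0.55, -0.62 and -0.86, and those of the follicular helper list -0.80, -1.15, -0.92, -1.0 and -1.13. The Th17 list was less even, with medians of 1.27, 0.63, 0.12, 0.05 and 0.76, and so was the AhR list, at 1.32, 1.17, 0.03, 1.5 and 0.81. No test of treatment was made here.

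With fewer pairs fewer genes were called, in these lists and over all genes. Over all genes, 2414 higher and 2288 lower became 1184 and 1055 without the 2 pairs with most macrophage RNA. They became 1310 and 1229 without the 2 pairs with fat and pancreas RNA. Whether a list lost more calls than all genes did was not tested. With the 3 pairs that remained without the 2 pairs with most macrophage RNA, the gut homing list had 4 genes higher in gut, the cytotoxicity list 5, the IL-2 and STAT5 list 3, the TNF receptor family list 6, the glycolysis list 7, the respiratory chain list 2 and the BCL2 family list 4. With the 3 pairs that remained without the fat and pancreas pairs, the gut homing list had 4 genes higher, the Th1 list 7, the cytotoxicity list 4, the inhibitory receptor list 4, the respiratory chain list 1 and the BCL2 family list 3. The residence list had 12 and 13 genes higher in these sets, the cholesterol list 14 and 15, and the exit list 10 and 9 genes lower, the naive list 12 and 10 and the follicular helper list 8 and 8. Leaving out a single pair took the gut homing list to 5 (anti-IL-2 batch 181201 or 181212), the unfolded protein response list to 3 (IgG batch 190306) and the BCL2 family list to 5 (IgG batch 190306).

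CD8 cells of the same batches and labels gave 5 further pairs, and a fit of all 20 libraries tested whether the gut difference of CD4 cells differed from that of CD8 cells. Each pair was its own block, so the tissue differences of the CD4 and CD8 pairs of a batch and label entered as independent. Whether matching them would change the standard errors and p-values was not tested. Of 12127 genes 161 (1.33%) had a higher and 131 (1.08%) a lower difference in CD4 cells (edgeR adjusted p under 0.05). In CD8 cells alone 21.1% of these genes were higher and 22.2% lower in gut. Of the residence genes 16 of 17 rose in either cell type, with medians of 1.84 in CD4 and 1.66 in CD8 cells, and 0 interactions passed in edgeR (5 at an unadjusted p under 0.05, 3 in DESeq2). Cholesterol synthesis genes, with medians of 0.65 and 0.61, also gave 0 in edgeR and in DESeq2 (4 at an unadjusted p under 0.05). A missing call is no proof of equality, since Itgae had log2 fold changes of 3.50 in CD4 and 6.20 in CD8 cells (difference -2.70 ± 0.82, adjusted p = 0.13) and Pmepa1 5.10 and 7.21 (difference -2.11 ± 0.67, adjusted p = 0.138). For S1pr1 and Rgs1 the differences were 0.02 ± 0.17 and 0.03 ± 0.51.

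Among helper genes, Ccr6 rose by 0.80 in CD4 cells and fell by 1.45 in CD8 cells (difference 2.25 ± 0.37, adjusted p = 0.0144). Il17a missed the threshold (5.49 and 3.52, difference 1.97 ± 0.49, adjusted p = 0.0579). The terminal effector receptor Klrg1 had log2 fold changes of 0.98 in CD4 and -0.79 in CD8 cells (difference 1.77 ± 0.28, adjusted p = 0.013), and Prr5, a subunit of mTORC2, 1.14 and -0.32 (adjusted p = 0.0156). Nos1 (0.34 and -1.26) was also among the 5 with the largest higher difference. Each of the calls of Ccr6, Klrg1, Prr5 and Nos1 was lost in 2 of the 5 fits that left out 1 batch and label in both cell types, at adjusted p-values of up to 0.101 (Ccr6, without anti-IL-2 batch 181212). The losses came without anti-IL-2 batch 181212 for Ccr6, Nos1 and Prr5, without IgG batch 190306 for Klrg1 and Prr5, without anti-IL-2 batch 181201 for Ccr6 and Klrg1, and without anti-IL-2 batch 190306 for Nos1.

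The falls of follicular helper and interferon genes were deeper in CD4 cells for some members. In the follicular helper list, whose medians were -1.07 in CD4 and -0.30 in CD8 cells, Cd200 (difference -0.83 ± 0.10, adjusted p = 0.00299), Il6st (-1.02 ± 0.13, adjusted p = 0.00328) and Tox2 passed, and Slamf6 and Btla did not (adjusted p = 0.0934 and 0.0937). These 3 of 13 members stand against 1.08% of all genes with a lower difference in CD4 cells. At an unadjusted p under 0.05 the list had 9 such members, and in DESeq2 8. Over all 12127 genes these counts were 950 and 241. The calls of Cd200 and Il6st held in each fit without 1 batch and label. In the interferon list, with medians of -0.53 and -0.22, 7 of 30 members had a lower difference in CD4 cells and 0 a higher one, against 1.08% and 1.33% of all genes. At an unadjusted p under 0.05 the list counts were 16 and 0, and in DESeq2 13 and 0. The 7 members were Ifit3 (difference -1.54 ± 0.29, adjusted p = 0.0193), Oasl1, Isg20 (which rose by 0.87 in CD4 and 2.22 in CD8 cells), Ifit1 (-1.26 ± 0.25, adjusted p = 0.0254), Usp18 (-1.18 ± 0.17, adjusted p = 0.00603), Mx1 and Dhx58, and 6 of them lost the call in 3 or more of the 5 fits without 1 batch and label. Usp18 lost it in 1 of them (adjusted p = 0.0537 without IgG batch 190306). Other genes with a lower difference were Gpm6b, which fell by 2.23 in CD4 cells and measured 0.09 in CD8 cells (adjusted p = 4.26e-05), Maats1 (-3.01 and -0.64, adjusted p = 0.000239), the kinase Matk (-0.85 and 1.17), the sialyltransferase St8sia1 (1.29 and 3.13) and Osgin1 (4.40 and 6.89). The calls of Gpm6b and Maats1 held in each fit without 1 batch and label, whereas those of Matk, St8sia1 and Osgin1 were lost in 2, 3 and 3 of the 5 fits, at adjusted p-values of up to 0.101, 0.15 and 0.0941. In the mitosis list 21 of 24 genes fell in CD8 cells, where 22.2% of all genes fell, and 0 in CD4 cells, and yet 0 of the 24 interactions passed in edgeR (15 higher in CD4 cells at an unadjusted p under 0.05, and 1 in DESeq2). Interaction calls depended on single pairs more than tissue calls did, with 20 to 212 higher and 17 to 119 lower when 1 batch and label was left out.

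**Figure D5:**
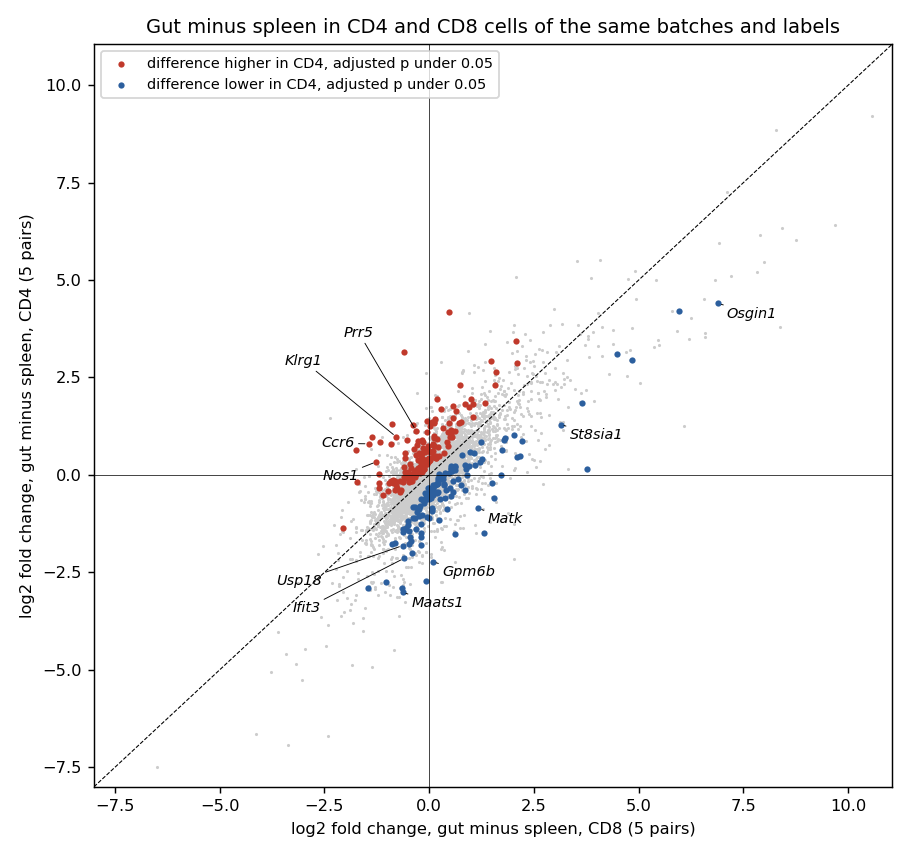
Log2 fold change between gut and spleen of each of 12127 genes in CD8 cells (x axis) and CD4 cells (y axis), 5 pairs each, with red and blue for genes whose difference is higher or lower in CD4 cells at an adjusted p under 0.05. The dashed line marks equal change, and the coloured genes flank it, Ccr6 and Klrg1 above it and Gpm6b, Maats1 and Matk below.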

How the data were processed

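Donor CD4 T cells of spleen and gut were profiled by stranded mRNA-seq from 280 ng of total RNA with 10 cycles of PCR, per the labels' protocols. The authors deposited 1 table of raw read counts for 24091 gene symbols, and every value used here is such a count. Per the submitters' processing notes the reads were processed with TopHat2, HTSeq 0.9.1 and mm10. The annotation, the strand setting and any filter are not given in the sources used here, so overlapping and antisense genes may share reads. Total counts per library (14628806 to 23978193) set the precision of low genes.

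The tests used edgeR 4.0.16 in R 4.3.3 (filterByExpr on tissue, TMM scaling, robust quasi-likelihood fit, Benjamini-Hochberg adjustment over 11588 genes, threshold 0.05). The 10 libraries formed 5 pairs by batch and treatment label, each pair was a block, and 4 residual degrees of freedom remained. The standard error of a log2 fold change is its size divided by the root of the F statistic. CPM uses TMM-effective library sizes, and differences by pair use log2 CPM with a prior count of 2. The comparison with CD8 cells fitted 20 libraries with 10 pair blocks and an interaction of tissue and cell type, with 8 residual degrees of freedom, over 12127 genes. Alternatives used DESeq2 1.42.0, limma 3.58.1 (voom), other scaling, filters and blocks, and subsets of pairs. The scripts were tested on simulated data.

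Same-batch, same-label libraries deviated together from their tissue means (r of 0.383 to 0.611 within pairs, at most 0.384 between), and the pairing comes from the labels. No 2 of the 45 library pairs agreed within sampling noise (lowest chi-square per gene 7.53).

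Named genes are the 15 largest called changes per direction (mean log2 CPM of at least 2, same direction in 5 pairs, no clone names, receptor segments or marker genes), up to 6 called members per list by smallest p, fixed defining members, and the 5 largest interactions per direction. Other list members are named where they complete a group or are the exceptions to it, and these, as well as Il6ra's description beside the follicular genes, were chosen after their values were seen. The pairs, the 28 programme lists and the 16 marker lists were chosen with earlier results of these data known. Gene positions come from GENCODE M21 (mm10, 97.6% of symbols matched) and promoter sequences from RefSeq (GRCm38.p6). Some genes that the naming rule selects are not reported here.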

Additional observations from a re-analysis of the deposited data

Results flagged for a closer look

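In 12 cases 1 of the 5 pairs stood apart from the other 4 by Dixon's test on the log2 difference between gut and spleen. Of the 182 genes and 42 lists examined, chance alone singles out about 1 in 20, which is close to the number found. The pair of anti-IL-2 batch 190306 was the distant one most often. In it the difference was -4.57 for Cebpa (other pairs -2.66 to -2.15), -5.47 for Sostdc1 (-3.66 to -3.08), 0.38 for the chaperone Hspa8 (0.56 to 0.62), 1.58 for Ski (0.76 to 0.93), 2.37 for Skil (1.69 to 1.88) and 1.05 for Tgfb1 (0.69 to 0.75). The median of the neutrophil and mast cell markers was -7.82 there (other pairs -1.31 to 0.90), and the spleen library of that pair held 118 CPM of these markers against 6.52 to 20.2 CPM in the other spleen libraries.

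In the pair of IgG batch 181212 Il2ra differed by -0.35 (other pairs 0.60 to 0.84) and Itga7 by -1.13 (-2.90 to -2.43). In anti-IL-2 batch 181212 Siglecf differed by 4.64 (3.14 to 3.26) and the respiratory chain gene Cox7a2 by 0.45 (0.16 to 0.24). The median of the Th1 list was 1.44 in IgG batch 190306 (0.81 to 0.97).

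For 27 genes that the naming rule selects and that are reported here, the gut difference of CD4 cells differed from that of CD8 cells by the interaction test. Isg20, Oasl1, Mx1 and Tox2, which are named above outside that rule, passed as well. The difference (CD4 minus CD8, log2) was higher in CD4 cells for Ccr6 (2.25), Klrg1 (1.77), Nos1 (1.6), Prr5 (1.46), Siglecf (1.36), Fosl2 (0.91), Ctsw (0.43), Acot7 (0.30) and Selplg (0.27). It was lower for Cebpa (-2.64), Osgin1 (-2.49), Maats1 (-2.38), Gpm6b (-2.32), Matk (-2.03), St8sia1 (-1.84), Abca1 (-1.72), Ifit3 (-1.54), Snn (-1.46), Ifit1 (-1.26), Usp18 (-1.18), Il6st (-1.02), Ski (-0.85), Cd200 (-0.83), Bmf (-0.78), Tnfrsf14 (-0.64), Dhx58 (-0.56) and Srgn (-0.39). Macrophage markers summed to at most 402 CPM in CD4 spleen libraries, and their part in the differences of Abca1 and Cebpa was not tested.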

How the results depend on the processing

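The direction of all 173 called named genes held under each alternative run, and 104 kept their call throughout. Leaving out 1 pair gave 1836 to 2288 genes higher and 1647 to 2082 lower in gut, and 16 named calls were lost in at least 1 such fit (Ccr6, Ddit3, Dnajb9, Gzmb, Igfbp4, Il2, Itgb7, Lig1, Matk, Mylip, Pcna, Ppard, Psat1, Socs2, Tiparp and Xbp1). Without the replicate block 1066 genes were higher and 939 lower, and 44 named calls were lost, the cause of which was not tested; among the lists, 11 interferon genes and 6 exit genes then fell, and 5 glycolysis, 5 gut homing, 3 Th17, 2 heat shock and 1 respiratory chain genes rose. Fewer pairs gave fewer calls: 1445 higher and 1320 lower without batch 190306, 1502 and 1356 in anti-IL-2 pairs only, and, in settings chosen after seeing the data, 1184 and 1055 without the 2 pairs with most macrophage RNA and 1310 and 1229 without the 2 pairs with fat and pancreas RNA. Values that changed sign belonged to genes not called: Gpr15 -0.063 and Pdcd1 -0.061 without batch 190306, Bcl6 0.045 without the fat and pancreas pairs, and Hspa1a -0.056 without the macrophage pairs and -0.35 without the fat and pancreas pairs. Without 1 pair Pdcd1 ranged from -0.026 (anti-IL-2 batch 190306) to 0.27 and Hspa1a from -0.19 (anti-IL-2 batch 181212) to 0.37.

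Interactions with cell type were less stable. Leaving out 1 batch and label gave 20 to 212 higher and 17 to 119 lower, DESeq2 302 and 241, the fit without the replicate block 8 and 10, and the fit without batch 190306 7 and 7; the cause was not tested apart from the smaller number of pairs. Of 31 named interactions 4 kept their call in each fit without 1 batch and label (Cd200, Gpm6b, Il6st and Maats1). Depth limits genes such as Il22, with 9 reads in 5 spleen libraries.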

Other observations

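Among genes outside the lists and outside the naming rule, and chosen here after their values were seen, Plac8 and Abcb1a had the smallest p-values of all genes tested. Plac8 rose in gut by 2.30 ± 0.05 and Abcb1a, a transporter that exports drugs and bile acids, by 1.70 ± 0.05 (log2 fold change, SE, n = 5 pairs), each higher in gut in 5 of 5 pairs. Among the marker lists of other cells, single members moved in different directions. In the B and plasma cell list Jchain, the antibody joining chain, rose by 3.77 and Cd22 fell by 2.46, and in the neutrophil and mast cell list the receptor Kit rose by 2.45 and Ngp fell by 4.82. The call of Jchain was lost without anti-IL-2 batch 181212 or IgG batch 181212. That of Ngp was lost without either of these or without anti-IL-2 batch 181201. Both calls were also lost without the macrophage pairs and without the fat and pancreas pairs. The integrin Itgax of the dendritic cell list rose by 1.26, a call lost without the fat and pancreas pairs, and Pecam1 of the endothelial list fell by 0.84. T cells can express several of these genes, and the cells that contributed their RNA cannot be told apart in bulk libraries.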
